A study of Caenorhabditis elegans with 6 samples.

Results

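The 26S proteasome is the protease that degrades proteins tagged with ubiquitin, and it is described here through 31 genes that encode its subunits in *C. elegans*, of 20351 genes in the count table. The 31 genes were chosen by name and function: 7 alpha and 7 beta subunits of the 20S core, 6 ATPases of the 19S base, 3 further 19S subunits (the scaffolds *rpn-1* and *rpn-2* and the ubiquitin receptor *rpn-10*), and 8 subunits of the 19S lid. The rule uses no measured value, although earlier results of these data were known when the genes were chosen, and the subunit genes *rpn-13*, *dss-1* and *rpn-6.2* are not among the 31. Populations of about 10000 N2 adults ate bacteria carrying either the *elt-2* RNAi construct or the empty vector for 24 hours from Day 1 of adulthood. Their embryos were released with bleach and hatched overnight in buffer without food, and whole-worm poly-A RNA of these unfed L1 larvae was sequenced by 3SEQ, which reads transcripts near their 3' ends. The libraries are 3 from progeny of *elt-2* RNAi mothers and 3 from progeny of empty vector mothers (Control), each group with replicates A, B and C and both groups otherwise of the N2 wild type strain. *elt-2* encodes the GATA factor that drives intestinal gene expression, and the comparison addresses how L1 transcript levels differed when it was targeted.

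In the core particle, alpha rings form the gate and beta rings hold the proteolytic sites inside. The 19S particle docks on the alpha ring: its ATPases unfold the substrate and thread it into the core, and its lid removes the ubiquitin chain. In *C. elegans* a form of SKN-1 raises transcription of proteasome genes when proteasome function falls, and it depends on the glycanase PNG-1 and the protease DDI-1 to become active.

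The libraries held 14378960 to 22124319 counts in the *elt-2* RNAi group and 13700707 to 19945971 counts in the Control group. Between 79.54% and 84.74% of each library came from its 100 most abundant genes, and the 78 ribosomal protein genes alone took 38.1% to 47.8% of the *elt-2* RNAi libraries and 40.7% to 50.4% of the Control libraries. Levels are therefore given as CPM, counts put on a common scale by TMM, in which edgeR equalizes libraries by the bulk of their genes and not by their totals. The target itself, *elt-2*, had 21, 34 and 44 counts after *elt-2* RNAi (replicates A, B and C, the order used throughout) and 32, 40 and 21 counts in Control. That is 1.05, 1.53 and 2.06 CPM after *elt-2* RNAi and 1.95, 3.26 and 1.35 CPM in Control, and the groups overlap. Its log2 fold change (*elt-2* RNAi over Control throughout) was -0.48 with a 95% interval from -1.49 to 0.53, so a fall of *elt-2* RNA was not detected in these counts. The study's text reports the knockdown by other means: lower *elt-2* RNA by qRT-PCR in L1 progeny, and larval arrest of most but not all progeny. The groups are called here by their labels' names. Of 8 intestinal marker genes, 6 had lower values after *elt-2* RNAi, and 2 passed the test: *vha-6*, an intestinal proton pump subunit, at 1.4, 0.764 and 1.88 CPM after *elt-2* RNAi and 4.07, 8.79 and 7.46 CPM in Control, and the metallothionein *mtl-2*, at 0, 1 and 0 counts after *elt-2* RNAi and 17, 13 and 29 counts in Control. The adjusted p (edgeR quasi-likelihood test, Benjamini-Hochberg) was 0.0378 for *vha-6* and 0.0114 for *mtl-2*. The call of *vha-6*, at a log2 fold change of -2.32, was lost by library totals (adjusted p = 0.114), without Control C (0.133), without *elt-2* RNAi A (0.103), without *elt-2* RNAi B (0.153) and without both B libraries (0.269), all from the edgeR quasi-likelihood test with Benjamini-Hochberg adjustment, while its fold change stayed between -1.79 and -2.62.

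No proteasome subunit passed the test in either direction. All 31 subunits were expressed well enough to be tested, and at a false discovery rate of 10% edgeR called 0 of them, against 2.81% of the 10063 genes tested (0.199% higher and 2.61% lower). At an unadjusted p under 0.05 there were again 0 subunits, against 14.5% of all genes tested, and the DESeq2 Wald test at the same false discovery rate also called 0. Under other settings *pbs-2* and *rpn-10* had an unadjusted p under 0.05 (by library totals, by counts outside ribosomal protein genes and without *elt-2* RNAi A), as did *pbs-2* alone when every gene with at least 1 count was tested and *pas-6* alone without *elt-2* RNAi B. The lowest adjusted p of any subunit was 0.409, for *pbs-2*. The estimates were above 0 for 21 subunits and below 0 for 10, and their median log2 fold change was 0.16, beside 0.06 over all genes tested, of which 53.7% lay above 0. Of the 31 subunits, 19 lay above the all-gene median. Without *elt-2* RNAi B, the subunits' median was 0.042, beside 0.02 over all genes tested, and 17 of 31 lay above 0. The scaling moves these figures for the subunits and for all genes, but not by the same amount for each gene. From TMM to library totals, *pbs-2* went from 1.07 to 1.32 and *pas-6* from -0.89 to -0.22. By library totals alone the all-gene median was 0.42 and the subunits' median was 0.54. Of the 31 estimates, 30 lay above 0 (20 above the all-gene median), with *pas-6* the exception. No subunit was called then, and the calls over all genes were 52 higher and 149 lower, against 20 higher and 263 lower by TMM.

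The intervals say how large a change could have been missed. The subunits' standard errors had a median of 0.40 on the log2 scale (0.33 to 0.87), beside 0.46 for all genes tested, and for 8 subunits the whole 95% interval lay inside a 2-fold change either way. For the other subunits a change of 2-fold or more in at least 1 direction lies within the interval. Because whole larvae were sequenced, fewer cells of a type and less RNA per cell cannot be told apart in any of these values.

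**Figure D1:**
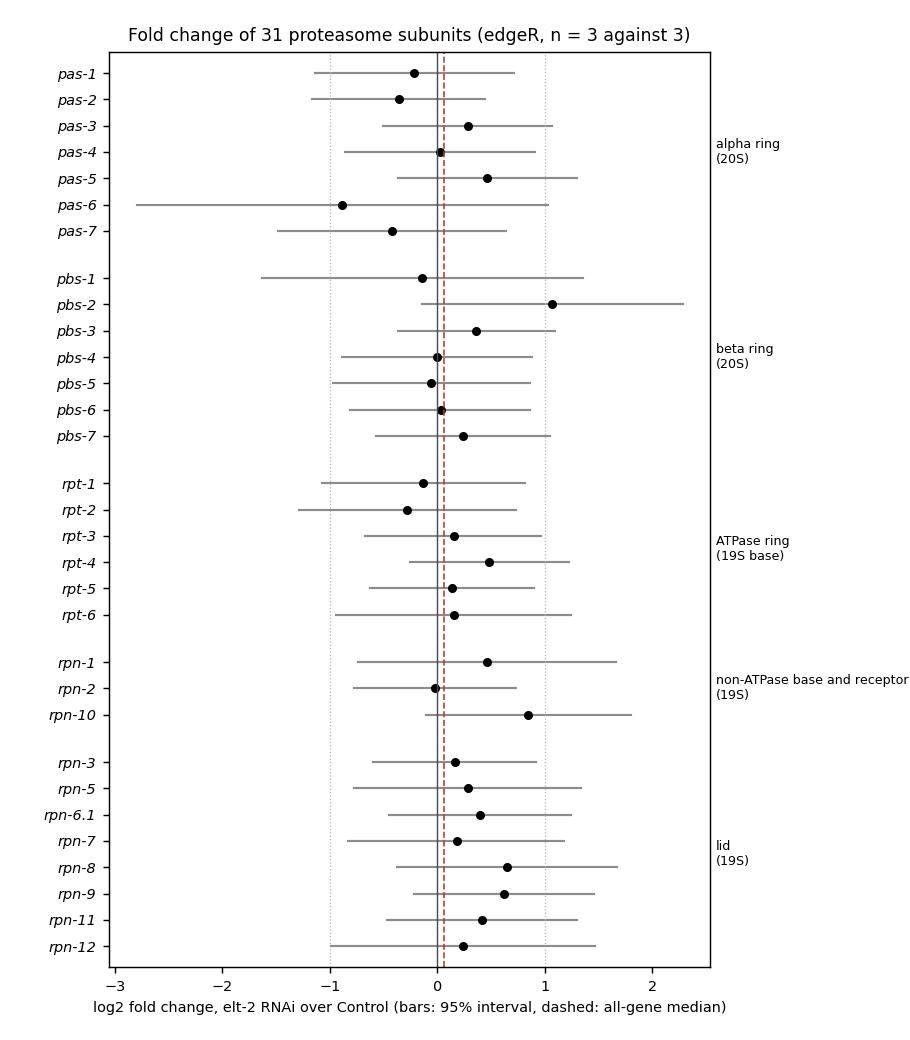
Log2 fold change of each of the 31 subunits (points) with its 95% interval (bars) from edgeR's quasi-likelihood fit, by subcomplex. The solid line is at 0, the dotted lines mark a 2-fold change and the dashed line is the median of all 10063 genes tested (0.06). Every interval includes 0, and the widest is that of *pas-6*.

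By Control mean the subunits were transcripts of middling abundance with 3 exceptions. Their mean Control level had a median of 4.94 CPM, that of *rpn-11*, and their mean level after *elt-2* RNAi a median of 6.87 CPM, that of *rpn-2*. The gap between these medians is thus not the change of any gene, and the subunits' median log2 fold change was 0.16. In Control the median of all genes tested was 3.59 CPM. Single libraries gave a subunit between 16 and 4704 counts, and 25 of the 31 had a Control mean between 2 and 15 CPM. The lowest was *rpn-5*, at the 28.1 percentile of tested genes, and the highest *rpt-6*, at the 96.6 percentile. By group mean *rpt-6*, *pas-6* and *pbs-1* stood above the rest. Together they made 49.4% to 57.2% of the summed subunit CPM in the *elt-2* RNAi libraries and 52.8% to 71.0% in the Control libraries. Of these 3, only *rpt-6* was above all the remaining subunits in every library. *pas-6* had 25.5 CPM in *elt-2* RNAi A, below *rpn-8* at 50.2 CPM. *pbs-1* had 17.8 CPM in Control C, below *pbs-5* at 35.3 CPM. The 3SEQ read-out depends little on transcript length, and across the 31 subunits Spearman's rho of annotated transcript length and Control level was -0.25, given as a description.

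**Figure D2:**
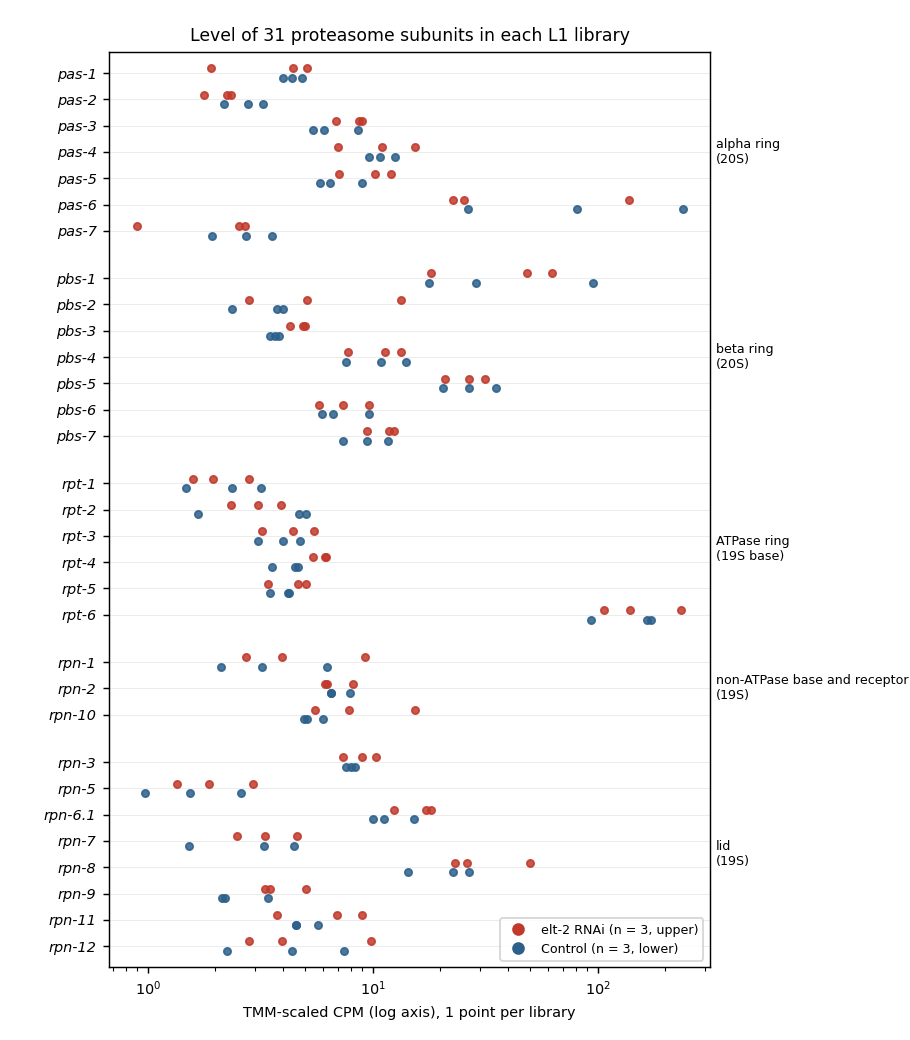
TMM-scaled CPM (log axis) of each subunit, with 1 point per library, *elt-2* RNAi in the upper row of each gene and Control in the lower. Most subunits lie between 2 and 15 CPM, *rpt-6* lies at 106 to 236 CPM after *elt-2* RNAi and 93.4 to 173 CPM in Control, and the 3 points of each group are fully apart for *pbs-3* and *rpt-4*.

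The alpha ring, the gate of the core, had the lowest median of the subcomplexes, -0.22 over 7 genes, with 3 above 0 and 4 below. That median changed sign, to 0.077 by library totals, 0.017 by counts outside ribosomal protein genes and 0.016 without Control B, and was -0.40 without *elt-2* RNAi B. At the top of the ring was *pas-5* (F25H2.9, chromosome I of WBcel235, 10566350 to 10567300), with 10.2, 12.05 and 7.08 CPM after *elt-2* RNAi and 9.0, 6.43 and 5.85 CPM in Control. The groups overlapped, its log2 fold change was 0.46 (95% interval -0.37 to 1.30), and its adjusted p was 0.606 (edgeR quasi-likelihood test, Benjamini-Hochberg). At the bottom was *pas-6* (CD4.6, chromosome V, 5583161 to 5584343), which was also the most variable subunit. *pas-6* had 25.5, 138 and 22.8 CPM after *elt-2* RNAi and 26.5, 238 and 80.9 CPM in Control. Both B libraries were high and both A libraries low, so that the spread within each group was wider than the gap between them. The log2 fold change of *pas-6* was -0.89 (95% interval -2.80 to 1.03), and it turned to 0.20 without Control B and was -2.24 without *elt-2* RNAi B, where its unadjusted p was under 0.05. The other 5 alpha genes ran between -0.42 for *pas-7* and 0.28 for *pas-3*, and *pas-4* lay at 0.02, with 15.4, 11.01 and 7.04 CPM after *elt-2* RNAi and 12.5, 10.8 and 9.65 CPM in Control.

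Among the beta subunits the median was 0.03, with 4 of 7 above 0. This median was 0.39 by library totals, 0.29 by counts outside ribosomal protein genes, and 0.10 to 0.24 when 1 library was left out. The estimates of the 3 proteolytic subunits, named here by the activity of their yeast counterparts, ran from -0.14 to 1.07. *pbs-2*, the trypsin-like subunit (C47B2.4, chromosome I, 12967216 to 12968280), had the highest estimate of all 31 genes and had 2.81, 5.08 and 13.4 CPM after *elt-2* RNAi and 3.77, 3.99 and 2.38 CPM in Control. A single library, *elt-2* RNAi C, lay far above the others, *elt-2* RNAi A lay inside the Control range, and the log2 fold change of 1.07 carried an interval from -0.14 to 2.28. Without *elt-2* RNAi C it was 0.23. *pbs-1*, the caspase-like subunit (K08D12.1, chromosome IV, 1708814 to 1709745), had 18.2, 62.6 and 48.6 CPM after *elt-2* RNAi and 28.9, 95.8 and 17.8 CPM in Control. Its groups overlapped widely, and its log2 fold change of -0.14 (95% interval -1.63 to 1.35) turned to 0.88 without Control B and 0.24 without *elt-2* RNAi A. *pbs-5*, the chymotrypsin-like subunit, had 20.9, 26.8 and 31.6 CPM after *elt-2* RNAi and 26.7, 20.4 and 35.3 CPM in Control, a log2 fold change of -0.06 (95% interval -0.97 to 0.86).

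Of the beta subunits without a catalytic site, *pbs-3* (Y38A8.2, chromosome II, 4954480 to 4955427) was one of only 2 subunits with no overlap between groups. It had 4.91, 4.99 and 4.27 CPM after *elt-2* RNAi and 3.83, 3.5 and 3.67 CPM in Control. The difference was small, a log2 fold change of 0.36 with an interval from -0.37 to 1.09 and adjusted p = 0.647 (edgeR quasi-likelihood test, Benjamini-Hochberg). The 2 non-overlapping subunits are 6.45% of the 31, against 17.9% of all genes tested (7.08% in the higher direction and 10.9% in the lower). *pbs-4* and *pbs-6*, at -0.00 and 0.03, were nearest to no change in the ring.

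The ATPases of the base had a median of 0.14, with 4 of 6 above 0, which turned to -0.014 without *elt-2* RNAi A and to -0.033 without both B libraries. *rpt-4* (F23F1.8, chromosome II, 42207 to 46216) was the other subunit with separated groups, and had 6.11, 5.44 and 6.19 CPM after *elt-2* RNAi and 4.5, 3.58 and 4.63 CPM in Control. Its log2 fold change was 0.48 (95% interval -0.26 to 1.22, adjusted p = 0.548 by the edgeR quasi-likelihood test, Benjamini-Hochberg). *rpt-2* (F29G9.5, chromosome V, 6016059 to 6017669), at the other end, had 2.35, 3.91 and 3.10 CPM after *elt-2* RNAi and 4.68, 5.05 and 1.67 CPM in Control. Control C was the lowest of the 6 libraries for *rpt-2* and the other Control libraries the highest, and the log2 fold change was -0.28 (95% interval -1.29 to 0.73). *rpt-6* (Y49E10.1, chromosome III, 12370456 to 12372607) had 236, 106 and 139 CPM after *elt-2* RNAi and 166, 93.4 and 173 CPM in Control, far more than any other ATPase, whose values stayed between 1.48 and 6.19 CPM. The products of these genes occupy the ring in equal number, and the ring's summed CPM was thus mostly that of *rpt-6*. The log2 fold change of *rpt-6* was 0.15 (95% interval -0.94 to 1.24), and it turned to -0.22 without *elt-2* RNAi A and to -0.069 without Control B.

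The scaffold *rpn-2* (C23G10.4, chromosome III, 6199184 to 6202594) had 8.17, 6.29 and 6.14 CPM after *elt-2* RNAi and 6.51, 6.51 and 7.91 CPM in Control, among the least variable profiles of the 31. Its log2 fold change was -0.02 with an interval from -0.78 to 0.73, inside a 2-fold change either way. *rpn-1*, whose yeast counterpart is a scaffold that also binds ubiquitin-like domains, had 3.96, 9.22 and 2.72 CPM after *elt-2* RNAi and 3.22, 6.27 and 2.12 CPM in Control. In both groups library B was highest and library C lowest, and the log2 fold change of 0.46 (95% interval -0.74 to 1.66) turned to -0.20 without *elt-2* RNAi B. The ubiquitin receptor *rpn-10* (B0205.3, chromosome I, 10730712 to 10732424) had 5.56, 7.82 and 15.3 CPM after *elt-2* RNAi and 4.93, 6.02 and 5.08 CPM in Control. Only *elt-2* RNAi A lay within the Control range, *elt-2* RNAi C was the highest as for *pbs-2*, and the log2 fold change was 0.84 (95% interval -0.11 to 1.8, adjusted p = 0.411 by the edgeR quasi-likelihood test, Benjamini-Hochberg). Without *elt-2* RNAi C it was 0.33.

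The lid was the subcomplex in which every estimate lay on the same side. All 8 of its genes had log2 fold changes above 0, between 0.16 and 0.65, with a median of 0.34, although none passed the test and no lid gene had groups that did not overlap. *rpn-8* (R12E2.3, chromosome I, 4175319 to 4177271), which pairs with the deubiquitinase *rpn-11*, was the most abundant and had the highest estimate. It had 50.2, 23.2 and 26.4 CPM after *elt-2* RNAi and 26.7, 14.4 and 22.6 CPM in Control, and only Control A exceeded any *elt-2* RNAi library. The log2 fold change of *rpn-8* was 0.65 (95% interval -0.38 to 1.67, adjusted p = 0.559 by the edgeR quasi-likelihood test, Benjamini-Hochberg), and 0.23 without *elt-2* RNAi A. At the low end *rpn-3* (C30C11.2, chromosome III, 8447353 to 8449346), a structural subunit, had 10.3, 8.99 and 7.41 CPM after *elt-2* RNAi and 8.33, 7.57 and 8.04 CPM in Control, a log2 fold change of 0.16 (95% interval -0.60 to 0.92). *rpn-9* had 5.06, 3.51 and 3.33 CPM after *elt-2* RNAi and 2.13, 2.20 and 3.41 CPM in Control, so that a single *elt-2* RNAi value lay below a single Control value. *rpn-11*, the enzyme that cuts off the ubiquitin chain, had 3.76, 6.97 and 9.01 CPM after *elt-2* RNAi and 4.56, 5.70 and 4.57 CPM in Control. *rpn-6.1*, a lid subunit known from long-lived *C. elegans* without a germline, in which its level and proteasome activity are raised, had 17.3, 18.2 and 12.4 CPM after *elt-2* RNAi and 11.19, 10.01 and 15.2 CPM in Control, a log2 fold change of 0.40 (95% interval -0.45 to 1.24). *rpn-12* had 3.96, 9.80 and 2.81 CPM after *elt-2* RNAi and 4.38, 7.49 and 2.25 CPM in Control. As for *rpn-1*, library B was highest and library C lowest in both groups, and its log2 fold change of 0.24 turned to -0.46 without *elt-2* RNAi B and to -0.10 without Control C.

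Summed over the lid, the level was 94.5, 78.2 and 66.6 CPM after *elt-2* RNAi and 59.8, 54.5 and 61.0 CPM in Control. The means were 79.8 ± 14.03 CPM after *elt-2* RNAi and 58.4 ± 3.48 CPM in Control (SD, n = 3 each), a ratio of 1.37, with no overlap between groups on this scale. By library totals the sums were 131, 89.0 and 64.1 CPM after *elt-2* RNAi and 71.7, 33.5 and 53.9 CPM in Control, and the groups overlapped. Much of the gap came from *rpn-8*. Without that gene, left out after its values were seen, the sums were 44.3, 55.0 and 40.2 CPM after *elt-2* RNAi and 33.1, 40.0 and 38.3 CPM in Control, a ratio of 1.25, and the lowest *elt-2* RNAi library lay next to the highest Control library. These sums are descriptions without a test. For the 17 genes of the 19S particle, 14 estimates lay above 0 and the median was 0.24, while for the 14 genes of the 20S core 7 lay above 0 and the median was 0.01. Whether core and 19S particle differed was not tested.

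Over all 31 subunits the summed level was 515, 537 and 425 CPM after *elt-2* RNAi and 418, 602 and 470 CPM in Control. The means, 492 ± 59.3 CPM after *elt-2* RNAi and 497 ± 94.7 CPM in Control (SD, n = 3 each), gave a ratio of 0.991. This total followed its most abundant members: in Control B, the highest sum, *pas-6* made up 238 CPM, and in *elt-2* RNAi A *rpt-6* made up 236 CPM. The remaining 28 subunits, separated from these and *pbs-1* after the values were seen, summed to 235.3, 229 and 215 CPM after *elt-2* RNAi and 197, 174 and 198 CPM in Control. That is 226 ± 10.6 CPM after *elt-2* RNAi and 190 ± 13.5 CPM in Control, a ratio of 1.19 with no overlap between groups. The separation depends on the scaling. Scaled by library totals alone, the same 28 subunits summed to 327, 261 and 207 CPM after *elt-2* RNAi and 237, 107 and 175 CPM in Control, and the groups overlapped at a ratio of 1.53.

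**Figure D3:**
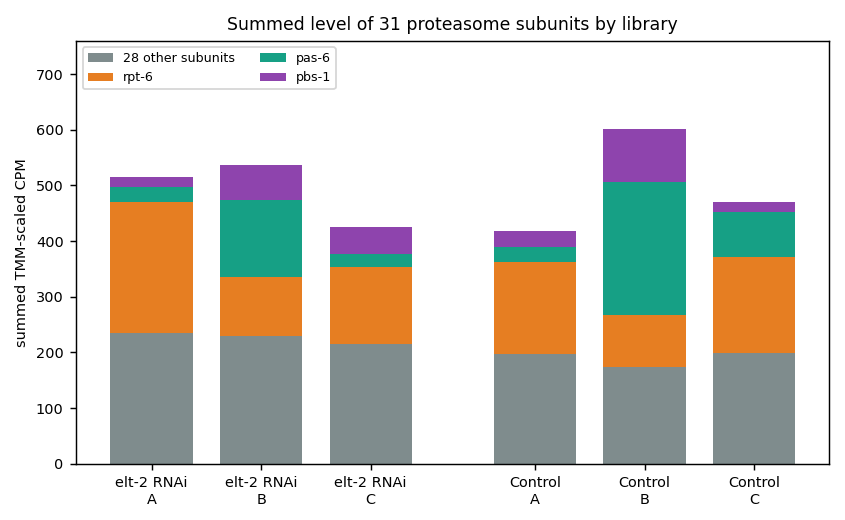
Summed TMM-scaled CPM of the 31 subunits in each library, *elt-2* RNAi to the left of Control, with *rpt-6*, *pas-6* and *pbs-1* drawn apart from the 28 other subunits. The 28 subunits sum to 215 to 235.3 CPM after *elt-2* RNAi and 174 to 198 CPM in Control, while *pas-6* alone adds 238 CPM to Control B.

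Library by library, the subunits did not share a single profile. Among *elt-2* RNAi libraries, library A was the highest for 10 subunits, B for 15 and C for 6, and among Control libraries A was the highest for 8, B for 13 and C for 10. Control B was also the lowest Control library for 13 subunits. Over the 465 pairs of subunits, the median correlation of deviations from the group means was 0.03, with 39 pairs above 0.8 and 42 below -0.8, from 6 libraries and as a description only. Some of the 39 pairs above 0.8 are named here, picked after their values were seen. They were *rpn-1* with *rpn-12* (r = 0.99) and *rpt-1* with *rpn-12* (r = 0.98), all high in the B libraries, *rpt-6* with *rpn-8* (r = 0.97), highest in *elt-2* RNAi A and lowest in Control B, and *pbs-2* with *rpn-10* (r = 0.95), highest in *elt-2* RNAi C.

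**Figure D4:**
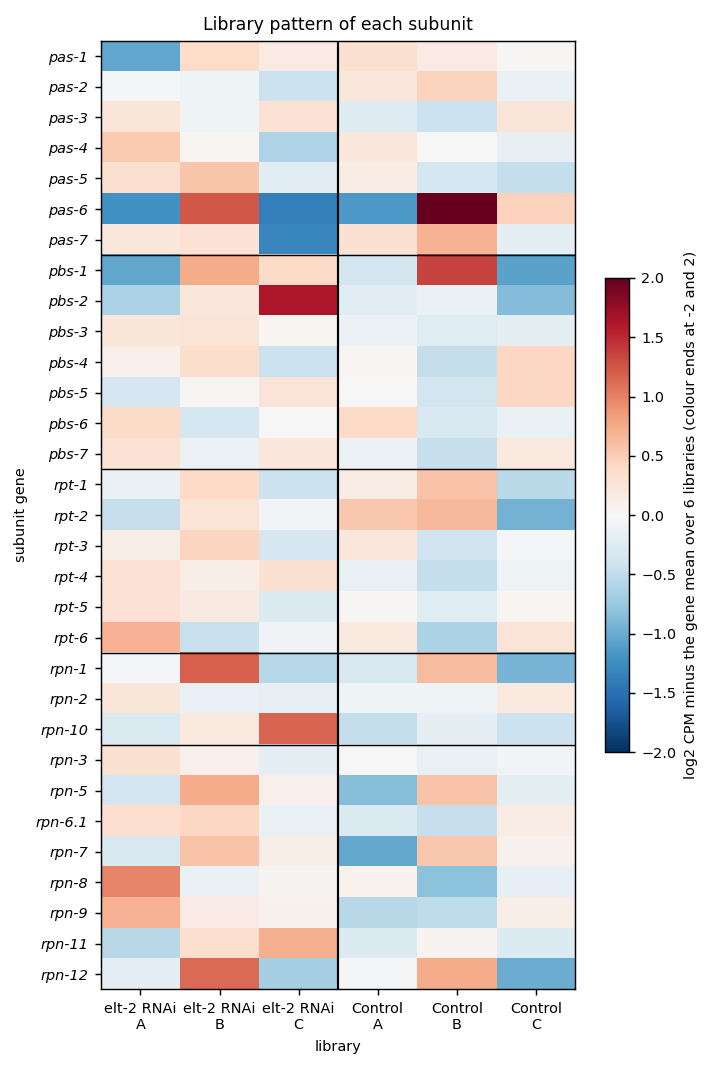
Deviation of each subunit's log2 CPM from its own mean over the 6 libraries (red above, blue below), *elt-2* RNAi libraries to the left of Control, with lines between subcomplexes. *pas-6* and *pbs-1* are highest in Control B, *pbs-2* and *rpn-10* in *elt-2* RNAi C, and *rpn-1* and *rpn-12* in *elt-2* RNAi B.

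The profile of *pas-6* moved with those of *ubq-2* and *csn-5* and with the share of ribosomal protein counts. *ubq-2*, which encodes ubiquitin fused to a ribosomal protein, had 179, 1008 and 150 CPM after *elt-2* RNAi and 181, 5056 and 1505 CPM in Control. *csn-5*, the catalytic subunit of the COP9 signalosome, had 8.87, 99.5 and 2.20 CPM after *elt-2* RNAi and 5.96, 109 and 29.1 CPM in Control. In all 3 genes *elt-2* RNAi B, Control B and Control C were the highest libraries, and these libraries also had the largest share of counts in ribosomal protein genes, 47.8%, 50.4% and 48.7%, beside 38.1% to 40.8% in the other 3 libraries. The part of this library difference in the values of *pas-6* was not tested. *ubq-2* had a log2 fold change of -2.33 (95% interval -4.73 to 0.06), the lowest estimate among the genes of ubiquitin conjugation. It was -0.93 without Control B.

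*dpy-7*, a cuticle collagen of the epidermis, had 77.4, 122 and 298 CPM after *elt-2* RNAi and 103, 56.2 and 48.3 CPM in Control. It was highest in *elt-2* RNAi C, as were *pbs-2* and *rpn-10*. The other epidermal markers did not peak in that library: *rol-6* was highest in *elt-2* RNAi B (7.96 CPM), *elt-1* in *elt-2* RNAi A (7.61 CPM), *elt-3* in Control C (3.28 CPM) and *lin-26* in Control A (33.2 CPM). The 5 epidermal markers all had estimates above 0 (median 0.23, none called). By contrast all 5 body wall muscle markers lay below 0 (median -0.83, none called), with summed CPM of 274 to 809 after *elt-2* RNAi and 455 to 1303 in Control. The muscle myosin *myo-3* had 30.9, 18.3 and 37.8 CPM after *elt-2* RNAi and 33.7, 99.7 and 49.7 CPM in Control. The 8 intestinal markers had a median of -1.16 and summed to 73.2 to 371 CPM after *elt-2* RNAi and 472 to 1235 CPM in Control, with no overlap. *asp-1* was the largest part of each Control sum, with 11.6, 31.2 and 137 CPM after *elt-2* RNAi and 316, 687 and 324 CPM in Control. Of the 8, *ges-1* (0.15) and *elt-7* (0.74) lay above 0. For 3 pharyngeal markers the median was -0.81, with 2 below 0 and 1 above (*pha-4*, 0.35). The pharyngeal myosin *myo-2* had 38.4, 72.1 and 132 CPM after *elt-2* RNAi and 80.6, 330.0 and 84.3 CPM in Control. For 5 neuronal markers tested of 6 listed the median was -0.75, with 3 below 0 and 2 above (*unc-119*, 0.64, and *snb-1*, 0.33). The neuropeptide convertase *egl-3* had 14.5, 8.54 and 17.3 CPM after *elt-2* RNAi and 19.6, 41.4 and 40.3 CPM in Control, with no overlap. The groups were likewise apart for *sbt-1*, with 47.8, 24.5 and 47.7 CPM after *elt-2* RNAi and 51.5, 73.5 and 76.6 CPM in Control. In the other direction, *unc-119* had 7.66, 9.44 and 8.91 CPM after *elt-2* RNAi and 6.08, 3.42 and 7.21 CPM in Control, also with no overlap. Over all genes tested, 17.9% had groups that did not overlap. For 2 germline markers tested of 3 listed the median was 0.00. The helicase *glh-1* had 3.96, 1.98 and 0.797 CPM after *elt-2* RNAi and 3.04, 2.03 and 0.836 CPM in Control. None of these 3 lists held a called gene. What these shifts in marker levels contributed to the subunits' values was not tested.

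*skn-1*, *png-1*, *ddi-1* and the other genes listed with them gave no call. *skn-1* had 8.07, 10.43 and 9.76 CPM after *elt-2* RNAi and 9.73, 13.8 and 11.6 CPM in Control, a log2 fold change of -0.31 (95% interval -1.10 to 0.48). The counts are per gene and do not separate its isoforms. *png-1* had 5.11, 3.96 and 6.38 CPM after *elt-2* RNAi and 4.80, 3.26 and 5.02 CPM in Control, a log2 fold change of 0.24 (95% interval -0.57 to 1.05). *ddi-1* had 1.75, 1.98 and 1.17 CPM after *elt-2* RNAi and 1.28, 0.733 and 0.643 CPM in Control. Only Control A exceeded an *elt-2* RNAi library, and the log2 fold change of *ddi-1* was 0.87 (95% interval -0.14 to 1.89). With *sel-1*, *sel-11* and *aip-1*, 5 of these 6 genes lay above 0, with a median of 0.24.

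Other proteasome subunits, their partners and the genes of ubiquitin conjugation also gave 0 calls, although *ubq-2* was called lower when every gene with at least 1 count was tested (log2 fold change -2.24, adjusted p = 0.012, edgeR quasi-likelihood test, Benjamini-Hochberg). Among 6 other subunits and partners tested of 7 listed, 4 lay above 0 and the median was 0.52. The ubiquitin receptor *rpn-13* was at -0.24 and the lid subunit *dss-1* at 0.53, and *rpn-6.2* was too low to be tested. *usp-14*, a deubiquitinase bound to the 19S particle, had 3.86, 3.64 and 2.11 CPM after *elt-2* RNAi and 1.95, 1.79 and 2.19 CPM in Control, a log2 fold change of 0.69 (95% interval -0.16 to 1.54). For ubiquitin and conjugation, 13 of 18 genes tested lay above 0 (median 0.15). Of the 18, 2 had an unadjusted p under 0.05 (edgeR quasi-likelihood test), beside 14.5% of all genes tested. Both were singled out after their values were seen. *rbx-1*, the RING subunit of cullin ligases, had 12.5, 37.0 and 20.7 CPM after *elt-2* RNAi and 8.51, 11.4 and 11.3 CPM in Control, with no overlap. *ned-8*, which modifies and activates cullins, had 7.51, 17.8 and 5.96 CPM after *elt-2* RNAi and 4.07, 6.35 and 4.37 CPM in Control. The log2 fold change was 1.17 for *rbx-1* (adjusted p = 0.285) and 1.08 for *ned-8* (adjusted p = 0.324), and both missed the threshold of the edgeR quasi-likelihood test with Benjamini-Hochberg adjustment. Without *elt-2* RNAi B these were 0.68 for *rbx-1* and 0.46 for *ned-8*.

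All 5 genes of the CDC-48 segregase, which extracts ubiquitinated proteins and hands them to the proteasome, had estimates above 0, with a median of 0.49. *npl-4.1* had 1.85, 2.43 and 0.938 CPM after *elt-2* RNAi and 0.547, 1.38 and 1.16 CPM in Control, a log2 fold change of 0.77 (95% interval -0.37 to 1.9). The COP9 signalosome and eIF3 share the lid's architecture. For the COP9 signalosome 5 of 6 genes lay above 0 (median 0.27). *csn-4* had 1.7, 4.09 and 1.31 CPM after *elt-2* RNAi and 1.22, 2.03 and 1.16 CPM in Control, a log2 fold change of 0.70 (95% interval -0.43 to 1.82) that was 0.053 without *elt-2* RNAi B. For eIF3 9 of 10 genes lay above 0 (median 0.13). *eif-3.B* had 8.82, 11.69 and 27.7 CPM after *elt-2* RNAi and 8.51, 7.41 and 7.59 CPM in Control, with its peak in *elt-2* RNAi C like *pbs-2*, and its log2 fold change of 1.03 was 0.39 without that library. The CCT chaperonin, another ring-shaped complex with subunits in equal number, had 1 of 8 estimates above 0 and a median of -0.04, which turned to 0.31 by library totals and lay between -0.34 and 0.070 when 1 library was left out. *cct-7* had 15.9, 12.81 and 23.3 CPM after *elt-2* RNAi and 19.4, 20.9 and 24.0 CPM in Control, a log2 fold change of -0.31 (95% interval -1.19 to 0.58). In autophagy, the other main route of protein degradation, 12 of 14 genes tested lay above 0, the median was 0.32, and the kinase gene *unc-51* had 6.66, 9.62 and 25.05 CPM after *elt-2* RNAi and 6.26, 10.99 and 6.75 CPM in Control, a log2 fold change of 0.79 (95% interval -0.37 to 1.94) that was 0.034 without *elt-2* RNAi C. No gene of these 5 lists was called.

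**Figure D5:**
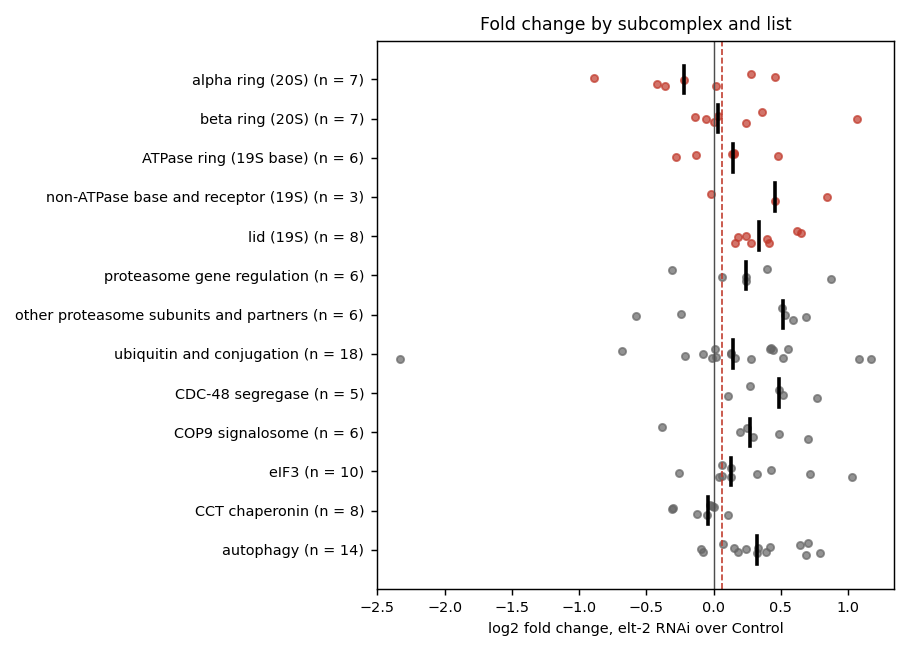
Log2 fold change of every gene tested in the 5 proteasome subcomplexes (red) and 8 related lists (grey), with each list's median as a black bar. The dashed line is the median of all genes tested, 0.06. The alpha ring has the lowest median, -0.22, and the other proteasome subunits and partners the highest, 0.52.

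In the annotation of WBcel235 the 31 genes were scattered, 10 on chromosome I, 7 on II, 6 on III, 3 on IV, 5 on V and 0 on X. For 9 of them a protein-coding gene on the other strand overlapped, and 6 began within 500 bases downstream of another gene on the same strand, a spacing like that between genes of *C. elegans* operons. Whether counting used strand is not given in the sources used here, so reads of overlapping pairs may have been shared. The abundant *rpt-6* overlaps *glrx-5*, which had 2.25, 9.22 and 1.41 CPM after *elt-2* RNAi and 1.34, 9.69 and 2.38 CPM in Control, a small fraction of the level of *rpt-6*. In *pas-7* the neighbour was the larger: *lact-2* had 29.5, 19.8 and 35.7 CPM after *elt-2* RNAi and 42.9, 53.5 and 25.2 CPM in Control, against 2.55, 2.70 and 0.891 CPM of *pas-7* after *elt-2* RNAi and 2.74, 3.58 and 1.93 CPM in Control. *rpn-11* overlaps *pqn-48*, which had 3.31, 4.72 and 25.5 CPM after *elt-2* RNAi and 3.53, 14.5 and 13.3 CPM in Control, and both genes were highest in *elt-2* RNAi C. *pbs-3* starts 22 bases after *ulp-2*, a SUMO protease gene at 1.503, 1.98 and 1.55 CPM after *elt-2* RNAi and 1.52, 2.28 and 0.643 CPM in Control, where the groups overlapped as they did not for *pbs-3*.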

How the data were processed

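Whole-worm L1 RNA was measured by 3SEQ in 3 *elt-2* RNAi and 3 Control libraries. The authors deposited raw counts of reads per gene, unnormalized, for 20351 genes. The submitters' processing notes name Bowtie 0.12.7; the genome build, annotation, counting tool and use of strand are not given in the sources used here. Of the gene IDs, 19436 matched the Ensembl release 115 annotation of WBcel235, the source of names and positions.

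Counts were filtered with filterByExpr, scaled by TMM and tested with edgeR 4.0.16 (quasi-likelihood, R 4.3.3) over 10063 genes, calling genes at a Benjamini-Hochberg false discovery rate of 10%. Standard errors and 95% intervals came from the log2 fold change and its F statistic. A level of 3 counts was 0.135 to 0.244 CPM. The study's text describes the libraries of a group as biological replicates. The fit was also run on simulated counts drawn from gene proportions common to all libraries, apart from genes set to change. The simulated libraries lack the differences in composition seen here, and nothing is concluded from them. The rank product test of the study's methods was not run.

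Alternatives were library size, DESeq2 1.42.0 size factors and upper quartile scaling, the DESeq2 Wald test, other filters, an adjusted p under 0.05, the replicate letter as a block and leaving out each library. The members and lists were chosen with earlier results of these data known. Values in every library are given for the highest and lowest estimate of each subcomplex, for *elt-2*, *skn-1*, *png-1* and *ddi-1*, and for each other list's called genes or largest estimate. Other genes named were chosen after their values were seen.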

Additional observations from a re-analysis of the deposited data

How the results depend on the processing

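No subunit was called under any of the 16 alternatives, of which scaling by counts outside ribosomal protein genes and leaving out both B libraries were chosen after seeing the data. Scaling moved the all-gene median: by library size it was 0.42 and 30 of 31 subunits lay above 0, and with counts outside ribosomal protein genes it was 0.34 with 28 above 0. The subunits' median was then 0.54 and 0.46. By library size the medians were 0.077 (alpha), 0.39 (beta), 0.49 (ATPases), 0.95 (*rpn-1*, *rpn-2* and *rpn-10*) and 0.75 (lid), the summed CPM ratio 1.35 and that of the 28 subunits 1.53. With counts outside ribosomal protein genes they were 0.017 (alpha), 0.29 (beta), 0.42 (ATPases), 0.90 (*rpn-1*, *rpn-2* and *rpn-10*) and 0.66 (lid), and the ratios 1.26 and 1.45. The summed ratio was 1.19 without *pas-6*, *rpt-6* and *pbs-1*, and the beta median 0.23 without both B libraries. Leaving out 1 library at a time gave a median over the 31 subunits of 0.042 (without *elt-2* RNAi B) to 0.23, an alpha median of -0.40 to 0.016, an ATPase median of -0.014 to 0.28, a beta median of 0.10 to 0.24 and a median of *rpn-1*, *rpn-2* and *rpn-10* of 0.042 (without *elt-2* RNAi B) to 0.94 (without Control B).

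Over all genes, calls higher and lower were 20 and 263. They were 52 and 149 by library size, 90 and 518 with the DESeq2 Wald test, 238 and 790 when every gene with at least 1 count was tested, 7 and 132 at an adjusted p under 0.05, and 2 and 62 without both B libraries. A mean count of at least 10 gave 12 higher, and counts outside ribosomal protein genes gave 148 lower. Leaving out 1 library gave 3 to 63 higher and 77 to 520 lower.

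Replicate letters are shared, but same-letter libraries deviated together for A (correlation 0.351) and B (0.424) and not for C (0.0111), while *elt-2* RNAi A with Control C reached 0.352. The letters were therefore not taken as pairs. With the replicate block 51 genes were called higher and 444 lower, *pbs-1* turned to 0.031, and no subunit was called.

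Single genes changed sign under other settings. By library size *pbs-1* was 0.39, *rpt-2* 0.075, *rpn-2* 0.38, *skn-1* 0.093 and *cct-7* 0.044. With counts outside ribosomal protein genes *pbs-1* was 0.29, *rpt-2* 0.019 and *rpn-2* 0.28. *rpn-2* was 0.020 when every gene with at least 1 count was tested. Without both B libraries *pbs-1* was 0.53, *rpn-2* 0.013 and *myo-2* 0.061. Leaving out 1 library, the ranges were -2.24 to 0.20 for *pas-6*, -0.53 to 0.88 for *pbs-1*, -0.22 to 0.38 for *rpt-6*, -0.15 to 0.071 for *rpn-2*, -0.20 to 0.98 for *rpn-1*, -0.46 to 0.73 for *rpn-12* and -0.49 to 0.66 for *glh-1*. The cause of these changes was not tested. Of 1319 recomputed values, 37 changed sign, 26 of them of single genes and 11 of medians. The depth limits *rpn-5* and the other low subunits, where a library can hold 16 counts.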
